A study of Oryza sativa Japonica Group with 64 samples.

Results

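The 100 genes described here are the rice leaf genes with the steepest daily course among those whose transcripts were most abundant at 16:00 under long days. They were chosen from the long-day flag leaf libraries alone, out of 55986 genes in the leaf table, of which 38890 had any count in leaves. For each gene the counts, scaled to a common library total (CPM), were averaged over the 4 long-day libraries of each of 6 collection times. A mean that was highest at 16:00 and at least 10 CPM was required, which 2307 genes had. Those genes were ranked by the highest over the lowest mean, each with 0.5 CPM added, and the top 100 were taken after 6 loci were set aside. The 6 loci are the clock genes GI, PCL1, PRR1 and PRR95, together with LOC_Os11g34460 and LOC_Os11g05930. Their own ratios were 328, 437, 54.4 and 1029 for the 4 clock genes in that order, 559 for LOC_Os11g34460 and 5.31 for LOC_Os11g05930. The ratio of the 100 genes lay between 49.0 and 5429 with a median of 89.8. The last genes inside the limit were LOC_Os01g10580 at 49.7 and LOC_Os12g17910 at 49.0, and the first outside it were LOC_Os08g43190 at 48.1 and LOC_Os07g39740 at 47.0. Long-day leaf values therefore chose these genes, and their height and sharpness in long-day leaves are given as a description, with no test.

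The plants were rice of the japonica cultivar 9522, csa mutants and wild type (WT), grown in paddy fields under short days (SD) or long days (LD). LD was the natural day of 14.5 h of light, and SD plots had 12 h because they were covered with film from 18:00 to 6:00. The flag leaf was sampled every 4 h from 08:00 to 04:00, at anther stage 12, and the anthers of those tillers at 16:00 and 04:00. Each combination had 2 biological replicates, giving 48 leaf libraries in 24 groups and 16 anther libraries in 8 groups. CSA is a MYB factor that the anther needs for its sugar supply, and the mutant is known for male sterility under SD only. Neither the kind of csa mutation nor any pooling of plants is stated in the labels.

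Many plant transcripts follow the day because light itself and the circadian clock both act on them. In the clock, proteins that accumulate around dawn repress genes of the evening, and pseudo-response regulators made in waves through the day in turn repress the dawn genes. Sugar made by photosynthesis through the light hours is a further signal, so that the late afternoon is the time of a long light exposure, a filled sugar pool and a defined clock phase. Of the 100 genes, 5 carry a name here. PRR37 (LOC_Os07g49460) is a pseudo-response regulator of the clock and in rice a repressor of flowering in long days. CATA (LOC_Os02g02400) is a catalase, which removes hydrogen peroxide. PIP2;7 (LOC_Os09g36930) is an aquaporin, a water channel of the plasma membrane. LIR1 (LOC_Os01g01340) is a light-regulated protein of the chloroplast, and PPT2 (LOC_Os08g25624) belongs to the phosphoenolpyruvate/phosphate translocators of the plastid envelope, and both of these names were added after their values were seen. The other 95 are given by their locus, with no role.

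Leaf libraries held 12.91 M to 20.45 M counts and anther libraries 18.05 M to 25.96 M. The tissues were checked with preset marker genes. RAFTIN1, a tapetum protein, had 0 counts in all 48 leaf libraries and 505 to 2189 CPM in anthers. RBCS3, a small subunit of Rubisco, had 11379 to 39765 CPM in leaves and 203 to 1151 CPM in anthers. Some other markers overlapped between the tissues. CAB1R had 0.747 to 7734 CPM in leaves and 17.2 to 515 CPM in anthers, and CAB2R 8.29 to 4553 and 37.0 to 1377 CPM. RCA had 467 to 69648 CPM in leaves and 84.3 to 584 CPM in anthers. CYP703A3 reached 2.91 CPM in leaves and fell to 1.08 CPM in anthers. The remaining markers did not overlap, though PKS1 fell to 0.237 CPM in anthers. The CSA transcript did not check the genotype labels, since in LD anthers it averaged 181 ± 56.1 CPM in csa and 63.8 ± 18.2 CPM in WT (mean ± standard deviation, n = 4 each), in SD anthers 123 ± 21.5 CPM in csa and 101 ± 18.9 CPM in WT, and in leaves at most 5.34 CPM. The labels were checked with 8 genes chosen to separate csa from WT in anthers and in LD leaves outside 12:00. By locus number 6 of them lie close together on chromosome 1 and 2 lie on chromosome 3, so their values are not independent checks. In the 4 libraries labelled SD 12:00, 31 of 32 values of these genes lay nearer the other genotype, against 5 of 160 in the other 20 SD leaf libraries and 1 of 32 in LD at 12:00. Comparisons between times below average both genotypes, which keeps an exchange within a time out of them, and the comparisons of csa with WT in SD leaves leave out 12:00.

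In LD leaves, by their choice, all 100 genes had their highest mean at 16:00, between 25.5 and 7830 CPM with a median of 198 CPM. The lowest mean fell at 08:00 for 61 genes, at 04:00 for 35 and at 00:00 for 4, so the course ran up from a trough around dawn. Together the 100 genes took 0.644 to 0.813% of all counts at 08:00, 1.92 to 2.36% at 12:00, 5.59 to 6.55% at 16:00, 1.76 to 1.92% at 20:00, 0.535 to 0.570% at 00:00 and 0.0974 to 0.131% at 04:00 (4 libraries each). The shoulders of the peak differed between genes. For 15 genes the mean at 12:00 was at least 50% of that at 16:00 and the mean at 20:00 was below 50%, for 23 genes the reverse held, for 10 both times reached 50% and for 52 neither did. At 4 genes both 12:00 and 20:00 stayed under 10% of 16:00.

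SD leaves took no part in the choice of the genes, and the afternoon peak was present there as well. Of the 100 genes, 86 had their highest SD mean at 16:00, 10 at 20:00, 2 at 08:00 and 2 at 12:00. These are means of CPM, and with TMM scaling only 3 of the 10 were lower at 16:00 than at 20:00. Among all 2307 genes with an LD peak at 16:00 and at least 10 CPM, 61.4% had their SD peak at 16:00. The count was 86 from the csa libraries alone and 88 from the WT libraries alone, with the 12:00 libraries taken as labelled. Genes picked by the same rule at other LD peak times kept the time in SD in 86 of 100 cases at 08:00, 23 at 12:00, 74 at 20:00, 31 at 00:00 and 35 at 04:00. The genes that peaked at 20:00 in SD were LOC_Os01g50622, LOC_Os10g25060, LOC_Os01g16620, LOC_Os10g32540, LOC_Os05g05060, LOC_Os01g67570, LOC_Os02g58120, LOC_Os03g55164, LOC_Os03g59340 and LOC_Os12g17910. At 08:00 the peak was that of LOC_Os08g33820 and LOC_Os06g21590, and at 12:00 that of LOC_Os04g40630 and LOC_Os04g27790. The SD trough fell at 08:00 for 70 genes, at 04:00 for 25, at 12:00 for 3 and at 00:00 for 2, and 77 genes had their trough at the same time in SD and LD.

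**Figure D1:**
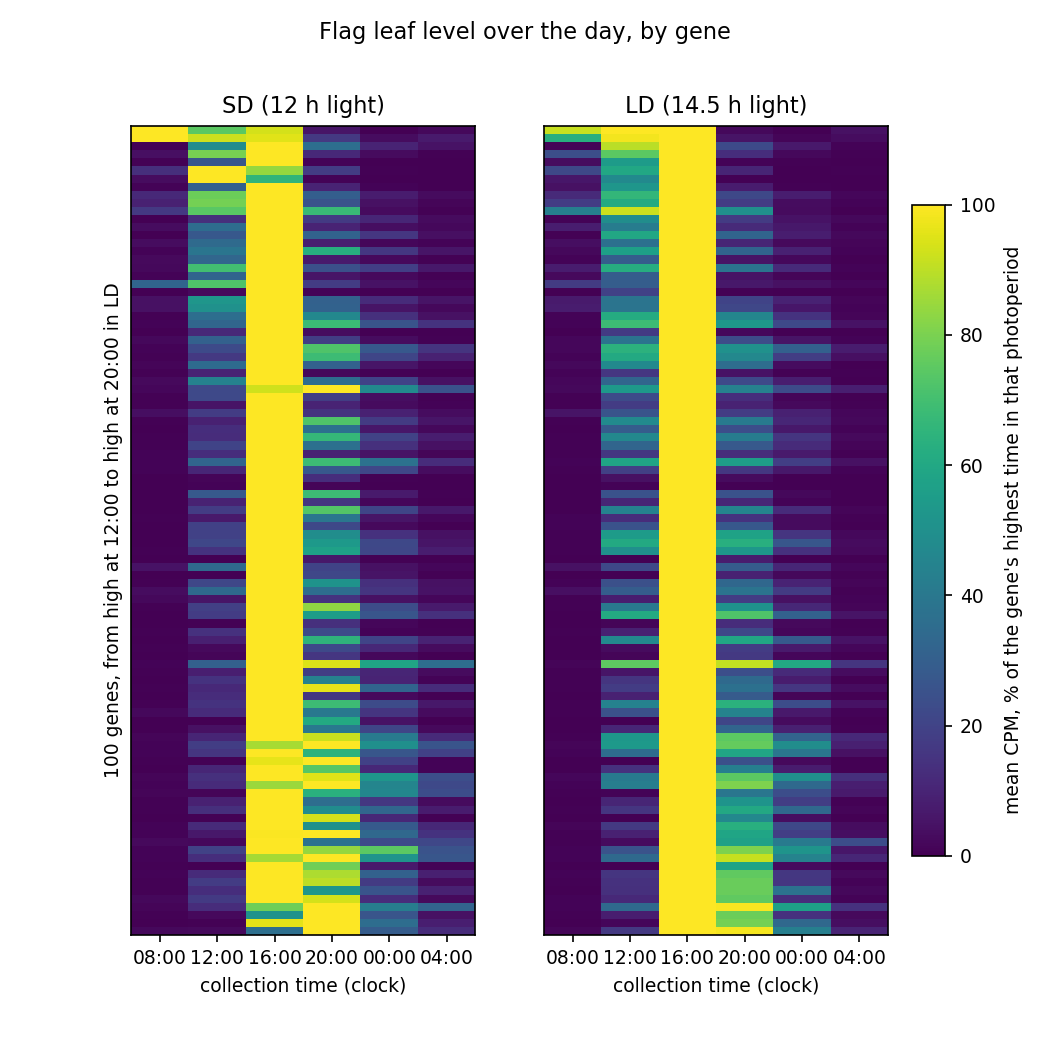
Mean CPM of the 100 genes (rows) at 6 collection times (columns) in SD leaves, left, and LD leaves, right, as a percentage of the gene's highest time in that photoperiod (mean of 4 libraries each). Rows run from genes that were high at 12:00 to genes that were high at 20:00 in LD. The LD column at 16:00 is at 100% in every row by choice, and in SD 86 rows are at 100% at 16:00, 10 at 20:00, 2 at 08:00 and 2 at 12:00.

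The gene with the steepest course was LOC_Os07g34570. In SD leaves it had 11902 and 10304 CPM in csa and 11882 and 12246 CPM in WT at 16:00. At 12:00 it had 1114 to 1565 CPM, and at 20:00 449 and 365 CPM in csa and 314 and 377 CPM in WT. At 04:00 no library held more than 1.53 CPM, and at 08:00 none more than 11.1 CPM. The 4 libraries of 16:00 lay above all others with no overlap. In LD its 16:00 values were 7155 and 7875 CPM in csa and 5975 and 6237 CPM in WT.

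LOC_Os04g57880 and LOC_Os03g08580 had a course that started after midday. LOC_Os04g57880 had 503 and 389 CPM in csa and 546 and 610 CPM in WT at 16:00 in SD, against at most 1.26 CPM at 12:00 in any library, and still 270 to 364 CPM at 20:00. LOC_Os03g08580 had 220 and 234 CPM in csa and 269 and 295 CPM in WT at 16:00, against 0.274 to 0.331 CPM at 12:00 and 48.5 to 60.6 CPM at 20:00. Both were thus nearly undetected at 12:00 and fell off more slowly after 16:00.

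LOC_Os12g31000 and LOC_Os01g42190 were narrow on both sides. LOC_Os12g31000 had 286 and 252 CPM in csa and 326.5 and 340 CPM in WT at 16:00 in SD, against 1.48 to 4.34 CPM at 12:00 and 3.28 to 5.28 CPM at 20:00. LOC_Os01g42190 had 213 and 184 CPM in csa and 206 and 202 CPM in WT at 16:00, against 3.03 to 6.65 CPM at 12:00 and 1.5 to 2.31 CPM at 20:00. For both, 3 of the 4 libraries at 04:00 had 0 counts. In LD leaves LOC_Os01g42190 was wider before the peak, with 7.61 to 116 CPM at 12:00, and the spread of those 4 libraries was large. LOC_Os03g15920, the fifth gene by ratio, had 700 and 750 CPM in csa and 741 and 709 CPM in WT at 16:00 in SD, with 56.6 to 84.2 CPM at 12:00 and 92.1 to 142 CPM at 20:00.

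Among the named genes, LIR1 (LOC_Os01g01340) had a plateau from 16:00 to 20:00. Its SD values were 9112 and 8644 CPM in csa and 9484 and 8187 CPM in WT at 16:00, and 10067 and 7844 CPM in csa and 8344 and 6889 CPM in WT at 20:00. The libraries of these times overlapped, and all of them lay above the 1255 to 1841 CPM of 12:00. At 08:00 LIR1 had 110 to 266 CPM.

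PRR37 (LOC_Os07g49460) had a broad course over the day. Its SD values were 43.0 to 55.2 CPM at 08:00, 195 to 239 CPM at 12:00, 272 to 329 CPM at 16:00, 180 to 212 CPM at 20:00, 7.84 to 9.87 CPM at 00:00 and 0.892 to 1.71 CPM at 04:00. In LD the level at 08:00 was already 88.5 to 150 CPM, and the 4 libraries at 16:00, with 232 to 315 CPM, overlapped those at 12:00, with 239 to 255 CPM. The transcript was thus high from midday to 20:00 and near its floor before dawn.

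CATA, PIP2;7 and PPT2 had their SD maximum at 16:00. CATA (LOC_Os02g02400) had 1335 and 1627 CPM in csa and 1303 and 1396 CPM in WT at 16:00, against 418 to 564 CPM at 12:00 and 223 to 385 CPM at 20:00. PIP2;7 (LOC_Os09g36930) had 1048 and 713 CPM in csa and 717 and 894 CPM in WT at 16:00, against 281 to 500 CPM at 12:00 and 253 to 384 CPM at 20:00. PPT2 (LOC_Os08g25624) had 234 and 203 CPM in csa and 252 and 246 CPM in WT at 16:00, against 40.6 to 47.3 CPM at 12:00 and 180 to 213 CPM at 20:00. The 16:00 libraries did not overlap those of the other times for CATA and PIP2;7, and for PPT2 they overlapped those of 20:00.

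**Figure D2:**
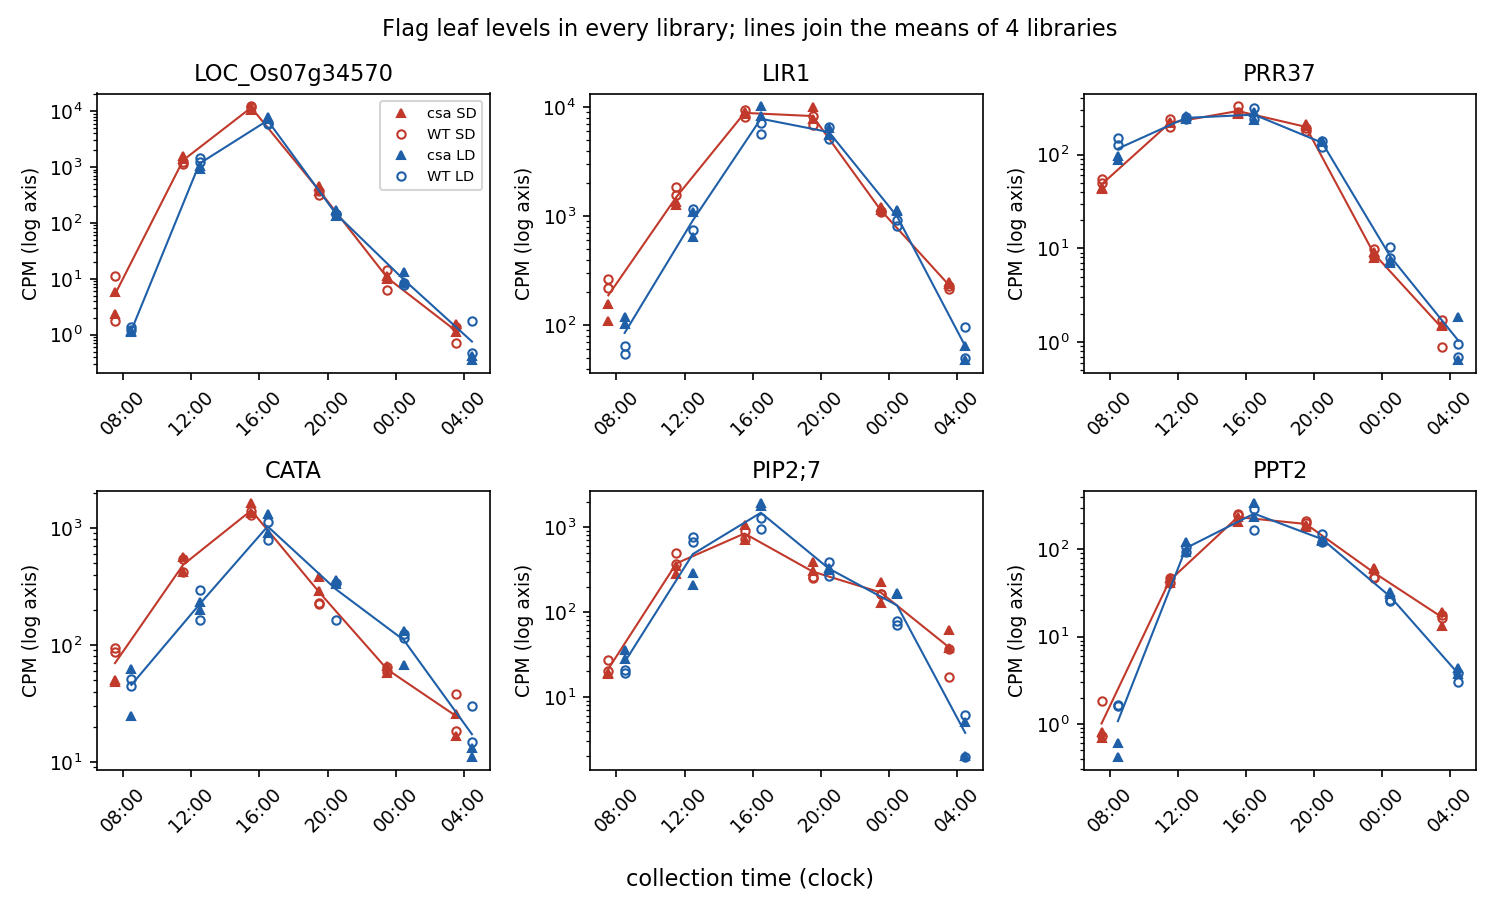
CPM (log axis) of LOC_Os07g34570 and the 5 named genes in each leaf library against the time of collection, in SD (red) and LD (blue), with csa as filled triangles and WT as open circles. Lines join the means of 4 libraries. LOC_Os07g34570 stands alone at 16:00, LIR1 stays high at 20:00, and PRR37 is already raised at 08:00 and 12:00.

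To set the SD peak against the replicate spread, 16:00 was compared with the mean of the other 5 times in the 24 SD libraries, with edgeR's quasi-likelihood test and Benjamini-Hochberg adjusted p-values over 21428 tested genes. A change is a difference of log2 levels at an adjusted threshold of 0.05. All 100 genes passed the low-count filter, and all 100 were higher at 16:00, where 35.4% of all tested genes were called higher and 31.5% lower. Their median log2 change was 3.73 (range 1.75 to 9.46), against 0.01 over all tested genes. In 72 genes every 16:00 library lay above all 20 libraries of the other times, as it did in 4.31% of the 35405 genes with a count in SD leaves. The largest changes were those of LOC_Os01g42190 at 9.46 (SE 0.115, edgeR adjusted p = 3.57e-20) and LOC_Os12g31000 at 9.32 (SE 0.109, edgeR adjusted p = 2.27e-20), whose size leans on the 0 to 2 counts of each library at 04:00. LOC_Os07g34570 changed by 8.57 (SE 0.204) and LOC_Os04g57880 by 6.83 (SE 0.127). The changes of the named genes were 3.78 on the log2 scale for CATA (SE 0.113), 3.35 for PPT2 (SE 0.0758), 3.34 for LIR1 (SE 0.0914), 3.31 for PRR37 (SE 0.0708) and 3.01 for PIP2;7 (SE 0.134). The smallest change was the 1.75 of LOC_Os03g59340, one of the genes with an SD peak at 20:00. In bulk samples fewer cells of a type and less RNA per cell cannot be told apart, and CPM are shares of a library whose makeup also changed: the median library scaling factor (TMM) in SD was 0.738 at 08:00, 0.865 at 12:00, 0.975 at 16:00, 1.21 at 20:00, 1.28 at 00:00 and 1.07 at 04:00.

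Most genes stood above their midday level in SD too. Against 12:00, 92 genes were higher at 16:00, 1 was lower and 7 did not pass, with 25.4% of tested genes called higher and 49.5% called in either direction. The median log2 change was 2.54, and 20 genes with under 10% of their LD peak at 12:00 had a median of 6.10. LOC_Os03g08580 changed by 9.54 (SE 0.215, edgeR adjusted p = 2.93e-16) and LOC_Os04g57880 by 9.07. LOC_Os01g65130 had 14.3 and 18.5 CPM in csa and 21.2 and 20.1 CPM in WT at 16:00. At 12:00 it had 1 read in 1 library and none in the other 3, so its fitted change of 10.08 depends on the prior count of the model and is no bound. LIR1 rose by 2.39, PPT2 by 2.23, CATA by 1.36 and PIP2;7 by 1.01 (SE 0.149, 0.115, 0.178 and 0.207 in that order). PRR37, with the broad course described above, changed by 0.24 (SE 0.102) and did not pass (edgeR adjusted p = 0.0576).

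The single fall against 12:00 was that of LOC_Os04g40630. It had 39.1 and 22.2 CPM in csa and 19.4 and 35.4 CPM in WT at 16:00, and at 12:00 18.9 and 37.8 CPM in the libraries labelled csa and 45.9 and 74.5 CPM in those labelled WT, so the times overlapped. Its log2 change of −0.68 (SE 0.24, edgeR adjusted p = 0.025) was lost without any 1 of 4 libraries, with values of −0.51, −0.50, −0.43 and −0.51 without the libraries labelled WT SD 12:00 replicate 2, WT SD 16:00 replicate 1, csa SD 12:00 replicate 2 and csa SD 16:00 replicate 2 in that order. The other gene with a midday peak in SD, LOC_Os04g27790, had a change of −0.44 that did not pass (edgeR adjusted p = 0.19). The genes with their SD peak at 08:00 were high from 08:00 through 16:00. LOC_Os08g33820 had 5641 and 4692 CPM in csa and 5019 and 5046 CPM in WT at 16:00, and 5095 and 5001 CPM in csa and 6609 and 5133 CPM in WT at 08:00. LOC_Os06g21590 had 2446 and 2081 CPM in csa and 2009 and 2583 CPM in WT at 16:00, and 1866 and 2143 CPM in csa and 3504 and 2048 CPM in WT at 08:00. For both, the libraries of these times overlapped.

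Against 20:00, which lies 2 h after the SD plots were covered, 88 genes were higher at 16:00, 2 were lower and 10 did not pass, with 29.8% of tested genes called higher and 24.9% lower. The median log2 change was 1.69. LOC_Os01g60730 had 67.5 and 60.1 CPM in csa and 64.1 and 66.7 CPM in WT at 16:00, against 0.433 to 0.612 CPM at 20:00, a change of 7.24 (SE 0.231, edgeR adjusted p = 2.03e-14). LOC_Os01g42190 followed with 7.12 (SE 0.175), while LOC_Os04g57880, which was nearly undetected at 12:00, changed by 1.02 (SE 0.169). CATA was higher at 16:00 than at 20:00 by 2.67, PIP2;7 by 1.82, PRR37 by 0.88 and PPT2 by 0.57 (SE 0.186, 0.211, 0.103 and 0.109 in that order). The change of LIR1 was 0.41 (SE 0.142, edgeR adjusted p = 0.0193). It was lost without WT SD 16:00 replicate 1 (0.36), without WT SD 20:00 replicate 2 (0.35) and without csa SD 20:00 replicate 2 (0.32).

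Both genes that were lower at 16:00 than at 20:00 had a later peak in SD than in LD. LOC_Os03g59340 had 31.3 and 27.1 CPM in csa and 28.6 and 28.2 CPM in WT at 16:00, and 72.4 and 80.0 CPM in csa and 73.6 and 90.2 CPM in WT at 20:00, a log2 change of −1.14 (SE 0.17, edgeR adjusted p = 1.54e-05). LOC_Os05g05060 had 67.7 and 80.6 CPM in csa and 60.3 and 65.3 CPM in WT at 16:00, and 148 and 144 CPM in csa and 102 and 142 CPM in WT at 20:00, a log2 change of −0.66 (SE 0.176, edgeR adjusted p = 0.00409). In neither gene did the libraries of these times overlap. In LD, where 16:00 was the peak by choice, LOC_Os03g59340 averaged 68.5 CPM at 16:00 and 67.7 CPM at 20:00, and LOC_Os05g05060 63.5 CPM at 16:00 and 49.3 CPM at 20:00. LOC_Os12g17910 had a higher SD mean at 20:00, 1096 CPM, than at 16:00, 1015 CPM, and a log2 change of 0.20 between TMM-scaled levels that did not pass (edgeR adjusted p = 0.4). Of the 10 genes with a higher SD mean at 20:00 in CPM, 7 had a TMM-scaled change above 0, LOC_Os12g17910 among them, and 3 had one below 0 (LOC_Os03g59340, LOC_Os05g05060 and, at −0.05, LOC_Os02g58120). The direction of the 7 therefore depends on the scaling.

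**Figure D3:**
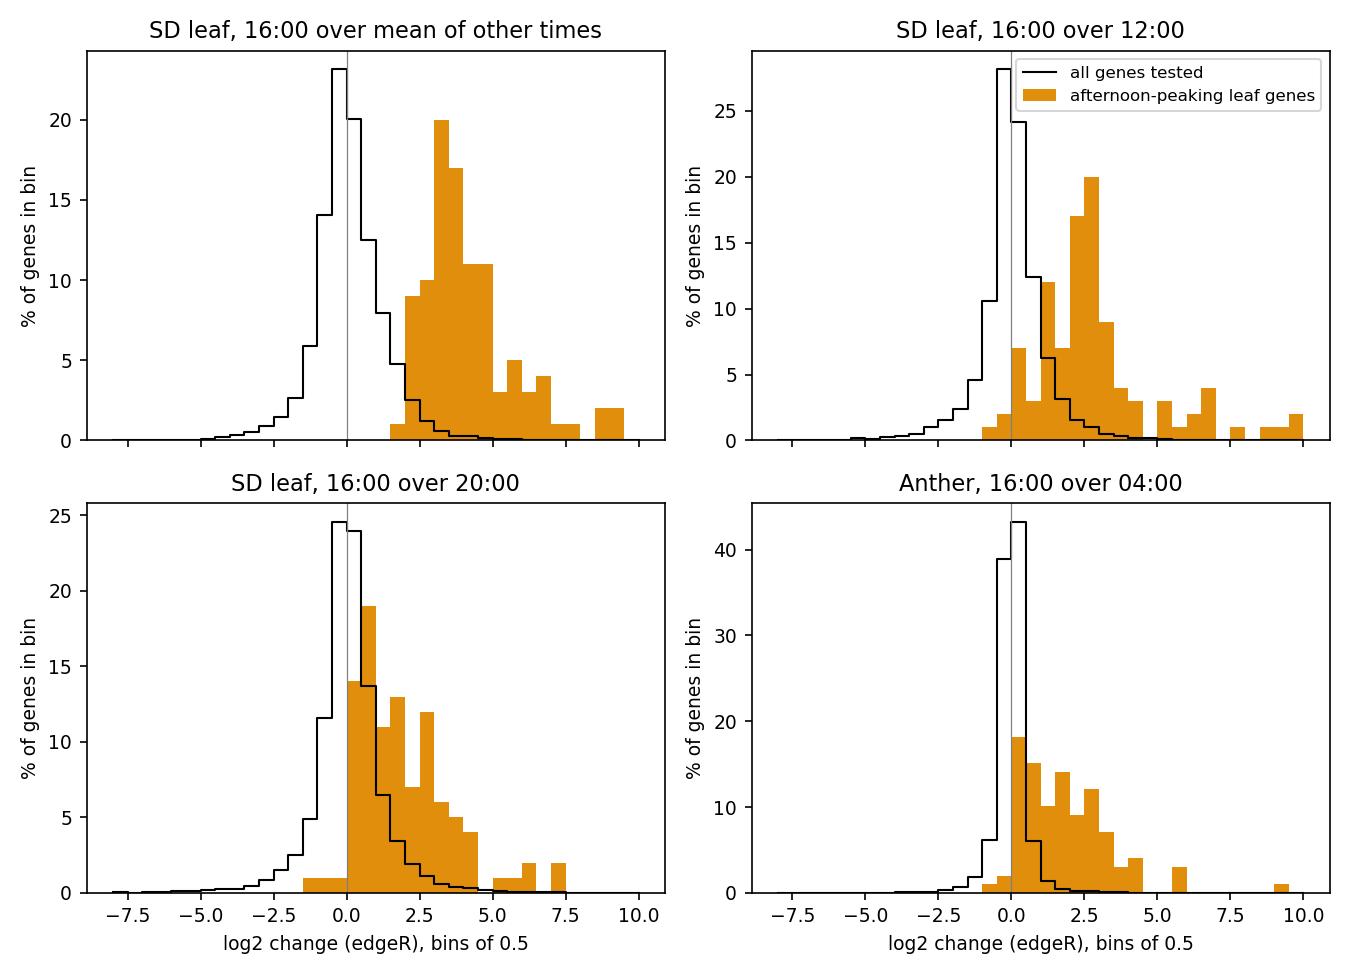
Distribution of the log2 change (edgeR, TMM-scaled) of the 100 genes (bars) and of all tested genes (line). Panels show SD leaves at 16:00 over the mean of the other times, over 12:00 and over 20:00, and anthers at 16:00 over 04:00. With 100 genes, the number of genes in a bin equals their percentage in the leaf panels, while 99 were tested in anthers. Values beyond the axis are counted in the end bins. In SD leaves the 100 genes have a median of 2.54 against 12:00 and 1.69 against 20:00, and 92 and 88 of them passed as higher at 16:00.

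With a shoulder taken as at least 50% of the 16:00 mean, 65 of the 100 genes had the same shoulders in SD as in LD, with no test of this count. Of the 23 genes with a shoulder at 20:00 only, 16 had the SD peak at 16:00 and 7 at 20:00, all 23 were higher at 16:00 than at 12:00 in SD, and their median log2 change over 20:00 was 0.56. Of the 15 with a shoulder at 12:00 only, 9 were higher at 16:00 than at 12:00, with a median of 0.85, and 14 were higher than at 20:00, with a median of 2.30. The 12:00 level of these 15 genes had a median of 48.8% of the 16:00 mean in SD and 61.0% in LD. Of the 10 with both shoulders, 1 had both in SD, where their 12:00 level had a median of 21.9%, against 61.0% in LD. In SD 9 of these 10 peaked at 16:00, 9 were higher at 16:00 than at 12:00, with a median of 2.05, and 8 were higher than at 20:00, with a median of 0.86. Of the 52 genes with neither shoulder, 50 had the SD peak at 16:00, and their medians were 2.84 over 12:00 and 2.54 over 20:00. All these counts are read beside the shares of all tested genes given above, and the groups were set on LD values.

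The height of the peak was alike in the photoperiods for the middle of the list, and LD values having chosen the genes, this is a description. The ratio of the SD to the LD mean at 16:00 had a median of 1.01 (range 0.203 to 2.22), with 51 genes higher and 49 lower in SD. Among 11093 genes with at least 10 CPM in LD at 16:00 the median was 0.908, and 37.8% had a ratio above 1. The ratio was below 0.5 for 6 genes, as for 4.71% of the 11093, and above 2 for 1 gene, as for 1.88%. The low ratios were those of LOC_Os10g25060 (21.5 CPM in SD and 108 CPM in LD), LOC_Os01g51980 (58.6 and 244 CPM), LOC_Os04g57880 (512 and 1318 CPM), LOC_Os01g65140 (11.8 and 30.3 CPM), LOC_Os03g59340 (28.8 and 68.5 CPM) and LOC_Os08g39810 (66.3 and 154 CPM), and the high one was that of LOC_Os09g04160 (170 and 76.0 CPM). Relative to 16:00, most of the 100 genes were higher at 20:00 and lower at 12:00 in SD than in LD, again as a description. The LD peak at 16:00 chose the genes, and the share over all genes was not worked out. No effect of day length is therefore read from the counts that follow. The level at 20:00 had a median of 38.7% of that at 16:00 in SD and 32.3% in LD and was higher in SD for 71 genes, and the level at 12:00 had a median of 15.3% in SD and 29.3% in LD and was higher in SD for 26 genes. At 04:00 the 100 genes took 0.248 to 0.266% of all counts in SD and 0.0974 to 0.131% in LD.

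The lists of clock genes, of photosynthesis and chlorophyll, and of nutrients and water each hold a named member. At 16:00 against the other times in SD leaves, 35.4% of all tested genes were called higher and 31.5% lower. Of 8 tested clock genes, 6 were higher and 2 lower at 16:00 than at the other times in SD leaves, with a median log2 change of 3.19. Beside PRR37 the higher genes were the 4 clock loci set aside above (PCL1 6.34, PRR95 6.11, PRR1 3.59 and GI 2.95) and PRR73, a pseudo-response regulator (3.06). The lower genes were OsLHY, a MYB factor of the morning (−2.89), and ELF3-1, a part of the evening complex (−1.04). Of 18 genes of photosynthesis and chlorophyll, 10 were higher and 6 lower. CATA stood there beside CATB, another catalase (0.82, SE 0.0961), and beside PORA, an enzyme of chlorophyll synthesis (5.72), and CAB1R, a chlorophyll-binding protein of the light-harvesting antenna (5.41). RCA, the Rubisco activase, was lower (−1.95). Of 23 tested genes of nutrients and water, 8 were higher, near the share of all tested genes, and 9 lower. Among the aquaporins PIP2;7 had the largest change, and PIP1;3 (1.98), TIP1;1 (2.51) and TIP2;2 (2.21) were higher too. PIP1;1 (−0.25) and PIP2;1 (−0.33) were lower, and PIP2;2 (−0.22), PIP1;2 (−0.08) and PIP2;6 (0.42) did not pass. PIP2;7 and CATA were chosen for a steep LD course with its peak at 16:00, which favours large changes for them beside other genes of their lists.

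Few of these genes differed between csa and WT in leaves. In SD, over the 5 times without 12:00, 0 genes were higher and 4 were lower in csa by edgeR, where 0.481% of tested genes were called higher and 0.667% lower. DESeq2 also gave 0 higher. At an unadjusted p under 0.05 there were 0 higher and 23 lower, with 14.1% of tested genes at such a p in either direction, and the log2 changes were positive for 34 and negative for 66 genes with a median of −0.10. LOC_Os09g23540 had 0.920 to 64.4 CPM in csa (median 8.38) and 1.54 to 74.7 CPM in WT (median 16.4), a log2 change of −0.61 (SE 0.1, edgeR adjusted p = 0.00243). Its csa and WT values lay close at 16:00 (63.8 and 64.4 CPM in csa, 68.4 and 74.7 CPM in WT) and apart at 00:00 (7.77 and 9.0 CPM in csa, 18.1 and 15.8 CPM in WT). LOC_Os09g04160 changed by −0.47 (SE 0.0898, edgeR adjusted p = 0.00982), with 2.42 and 1.98 CPM in csa against 5.46 and 4.75 CPM in WT at 08:00. LOC_Os01g10580 changed by −0.78 (SE 0.154, edgeR adjusted p = 0.0128), a call that was lost without WT SD 04:00 replicate 1 (−0.68).

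LOC_Os01g05060 changed by −0.48 in csa SD leaves (SE 0.0993, edgeR adjusted p = 0.0186), and this call was lost without WT SD 08:00 replicate 1 (edgeR adjusted p = 0.131) or csa SD 08:00 replicate 2 (edgeR adjusted p = 0.0687). It had 238 and 236 CPM in csa and 378 and 362 CPM in WT at 20:00, and 464 and 506 CPM in csa and 594 and 621 CPM in WT at 16:00. The genotypes did not overlap at these times. In LD leaves its change over all times was 0.12 (SE 0.0929) and did not pass (edgeR adjusted p = 0.596). Of the 8 genes that served to check the genotype labels, 6 lie on chromosome 1. By its locus number one of them, LOC_Os01g05090, is close to LOC_Os01g05060. Whether the position of LOC_Os01g05060 has a part in its SD change was not tested.

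In LD leaves, over all 6 times, 3 genes were higher and 2 lower in csa, where 1.43% of tested genes were called higher and 1.11% lower. All 5 calls were lost without at least 1 library, and none of them was left when the 12:00 libraries were taken out. Among the 5 calls LOC_Os12g31000 had the largest change, −1.07 (SE 0.222, edgeR adjusted p = 0.0117), and it was −0.85 without WT LD 04:00 replicate 2 (edgeR adjusted p = 0.316). At its peak it had 315 and 300 CPM in csa and 358 and 303 CPM in WT, with the separation at low levels, as at 00:00 with 0.212 and 0.151 CPM in csa and 0.710 and 0.685 CPM in WT. The other called changes were 0.53 for LOC_Os07g48510, 0.35 for LOC_Os12g17910, 0.28 for LOC_Os07g43810 and −0.25 for LOC_Os09g27030. For some genes the test statistic was near 0 beside a sizeable fitted change, and they were not called. Among them were LOC_Os02g45225 (−1.54, SE 3575) and LOC_Os04g40630 (−0.75, SE 931). An SE of this size is derived from that statistic and measures no spread.

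At 16:00 itself no gene of the list was called between csa and WT. In SD edgeR gave 0 higher and 0 lower (lowest adjusted p = 0.69) and DESeq2 0 as well, with 1 higher and 4 lower at an unadjusted p under 0.05, a p that 5.64% of tested genes had in either direction, and 0.163% of tested genes called. In LD edgeR gave 0 and 0 (lowest adjusted p = 0.665) and DESeq2 0, with 3 higher and 1 lower unadjusted, against 5.35% of tested genes, and 0.15% called. The size of the peak over the other times was compared between csa and WT as well. In SD edgeR called 0 genes (lowest adjusted p = 0.732) and DESeq2 0, with 4 higher and 4 lower unadjusted, against 4.98% of tested genes, and 0.00933% called. In LD edgeR called 0 (lowest adjusted p = 0.617) and DESeq2 0, with 2 higher and 5 lower unadjusted, against 5.19% of tested genes, and 0.0% called. For some genes the edgeR statistic of this difference was near 0 beside a sizeable fitted change. The SE derived from it is then very large and measures no spread. In LD these included LOC_Os02g45225 (2.04, SE 4678) and LOC_Os04g40630 (1.68, SE 3467). In SD they included LOC_Os02g45225 (0.63, SE 1165) and LOC_Os03g18870 (0.57, SE 740). There were 2 libraries per genotype at 16:00, and a p that misses the threshold does not show that the genotypes were alike.

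In anthers the same genes were mostly higher at 16:00 than at 04:00. Anthers took no part in the choice, and 99 of the 100 genes passed the low-count filter there, LOC_Os06g28050 being the exception. By edgeR 82 were higher at 16:00, 1 was lower and 16 did not pass, where 10.7% of 25203 tested genes were called higher and 10.1% lower. The median log2 change was 1.58 (range −0.86 to 9.31), against 0.01 over all tested genes. In 50 genes all 8 libraries of 16:00 lay above all 8 of 04:00, as in 0.665% of 38063 genes with a count in anthers. Counted within a group of 4 libraries, both 16:00 libraries were above both 04:00 libraries for 89 genes in csa SD, 77 in WT SD, 83 in csa LD and 84 in WT LD. Of the 38063 genes with a count in anthers, 24.5% met the same condition in csa SD, 20.8% in WT SD, 22.4% in csa LD and 23.0% in WT LD. The 5 leaf markers had summed levels of 1087 to 3278 CPM at 16:00 and 463 to 2310 CPM at 04:00, with 2 of 5 called higher (CAB1R and CAB2R) and 1 lower (RCA), and none was at 0 in an anther library. The called markers also followed the day in SD leaves, with 5.41 for CAB1R, 4.52 for CAB2R and −1.95 for RCA at 16:00 against the other times. RBCS3 (0.26) and RBCS2 (−0.04) did not pass in anthers. The part of the makeup of the anthers in the result was not tested.

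The amplitude was set beside that of leaves as a description, since the genes were chosen for a steep leaf course. The ratio of the 16:00 to the 04:00 mean, with 0.5 CPM added to each, had a median of 2.31 in anthers (range 0.66 to 33.9) and 29.2 in SD leaves (range 2.42 to 6883). It was smaller in anthers for all 100 genes, which the choice of genes favours, and nothing is read from that count. Together the 100 genes took 0.561 to 0.714% of all anther counts at 16:00 and 0.250 to 0.298% at 04:00. At 16:00 their anther mean had a median of 8.70% of the LD leaf mean, against 108.5% over 11093 genes, a comparison in which the leaf values are those that chose the genes. The anther mean at 16:00 was at least 10 CPM for 66 genes and under 1 CPM for 6. It was above the leaf mean for 4 genes, named after their values were seen: LOC_Os10g37860 at 548% of the leaf mean, LOC_Os03g59340 at 382%, LOC_Os03g38540 at 357% and LOC_Os03g29770 at 103%.

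LOC_Os01g42190 was nearly undetected at 04:00 in anthers, as it was in leaves. At 16:00 it had 20.9, 21.3, 19.2 and 19.6 CPM in csa and 10.1, 10.8, 20.6 and 17.9 CPM in WT (SD libraries before LD), and at 04:00 0 to 2 reads in each library. Its fitted log2 change of 9.31 (SE 0.237, edgeR adjusted p = 5.84e-10) rests on those few reads. LOC_Os07g43570 had the next change, 5.71 (SE 0.915, edgeR adjusted p = 0.00249), with 4 to 48 reads at 16:00 and at 04:00 4 reads in 1 library and 0 in the other 7, so that its size is no bound. LOC_Os04g57880 had 24.14 to 87.8 CPM at 16:00 and 0.475 to 2.62 CPM at 04:00, a change of 5.57 (SE 0.169, edgeR adjusted p = 5.94e-10).

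LOC_Os07g34570 had 780 to 1487 CPM at 16:00 (median 1214) and 76.9 to 130 CPM at 04:00 (median 108) in anthers, a log2 change of 3.56 (SE 0.0898, edgeR adjusted p = 1.46e-10). LIR1 had 48.7 to 157 CPM at 16:00 (median 88.2) and 6.32 to 30.1 CPM at 04:00 (median 11.8), a change of 2.89 (SE 0.141). PRR37 had 86.3 to 159 CPM at 16:00 (median 116) and 12.6 to 60.4 CPM at 04:00 (median 17.6), a change of 2.49 (SE 0.073). The 16:00 libraries lay above those of 04:00 in each of these genes. CATA had 195 to 504 CPM at 16:00 (median 316) and 40.1 to 194 CPM at 04:00 (median 141), a change of 1.51 (SE 0.111), and PPT2 had 27.5 to 73.4 CPM at 16:00 (median 42.8) and 10.2 to 21.7 CPM at 04:00 (median 18.3), a change of 1.45 (SE 0.0731). The times did not overlap in CATA or PPT2 either, and all 5 genes passed, with edgeR adjusted p-values of at most 1.75e-06.

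Of the named genes PIP2;7 did not pass in anthers. It had 96.4 to 894 CPM at 16:00 (median 376) and 131 to 483 CPM at 04:00 (median 276), a log2 change of 0.30 (SE 0.114, edgeR adjusted p = 0.0828). LOC_Os12g31000, among the narrowest genes in leaves, did not pass either, with a change of 0.74 (SE 0.345, edgeR adjusted p = 0.153). The single lower gene was LOC_Os11g02450, with 0.749 to 4.61 CPM at 16:00 and 1.47 to 6.56 CPM at 04:00. Its log2 change of −0.86 (SE 0.277, edgeR adjusted p = 0.0469) was lost without any 1 of 12 of the 16 libraries.

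**Figure D4:**
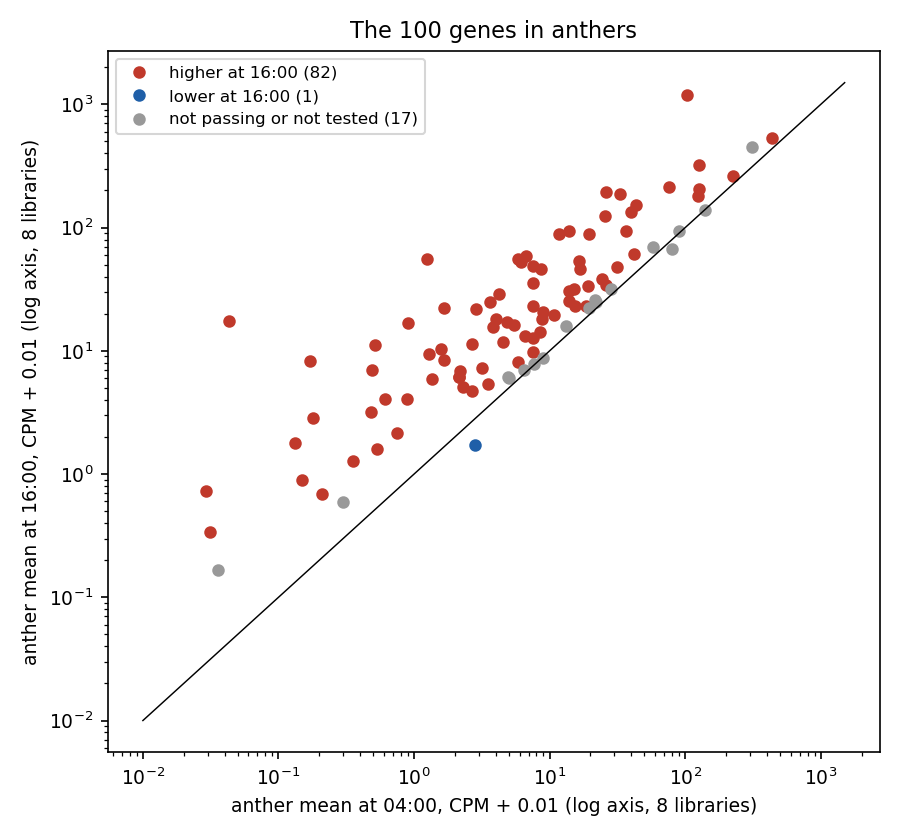
Mean CPM in anthers at 16:00 (vertical) against 04:00 (horizontal) for the 100 genes, with 0.01 CPM added and log axes; each point is a gene, averaged over 8 libraries per time, and the line marks equality. Red points (82) were higher and the blue point (1) was lower at 16:00 by edgeR, and grey points (17) did not pass or were not tested.

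Of the clock genes, 6 of 8 tested were higher at 16:00 than at 04:00 in anthers and 1 was lower, with GI at 4.83, PCL1 at 4.33, PRR73 at 3.77, PRR95 at 2.60, PRR1 at 1.87 and OsLHY at −4.47, while ELF3-1 at 0.09 did not pass. Of the 18 genes of photosynthesis and chlorophyll 5 were higher and 9 lower, with CATB at 0.40 and PORA at −1.18, and of 24 tested genes of nutrients and water 6 were lower and 18 did not pass. In this comparison 10.7% of all genes tested in anthers were called higher and 10.1% lower. The aquaporins PIP2;1 (−0.92), PIP1;2 (−0.88), PIP2;2 (−0.72), PIP1;3 (−0.69) and PIP1;1 (−0.42) were among the lower genes of nutrients and water, beside the 0.30 of PIP2;7 that did not pass.

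In anthers csa and WT differed in many genes of the genome, and among the 100 genes as well. In SD 48 genes were higher in csa, 12 were lower and 39 did not pass, where 25.8% of tested genes were called higher and 21.7% lower. In LD 34 genes were higher in csa, 11 were lower and 54 did not pass, where 18.7% of tested genes were called higher and 16.5% lower. The median log2 changes were 0.36 in SD and 0.26 in LD, against 0.08 and 0.04 over all tested genes. In both photoperiods 27 genes were higher in csa and 7 were lower, CATA was higher in SD and lower in LD, and 30 genes passed in neither. The count of higher genes in SD was 32 without WT SD 16:00 replicate 1, and that in LD was 20 without WT LD 04:00 replicate 2.

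Marker genes of both tissues moved with these groups. In SD all 5 leaf markers were higher in csa, with summed levels of 1616 to 3278 CPM in csa and 463 to 2463 CPM in WT, and all 5 anther markers were lower, with 863 to 941 CPM in csa and 2160 to 3744 CPM in WT. In LD 2 leaf markers were higher (CAB1R and CAB2R), with 1183 to 1789 CPM in csa and 983 to 1665 CPM in WT, and of the anther markers 3 were lower and 1 (PKS1) was higher, with 1038 to 1848 CPM in csa and 2131 to 3017 CPM in WT. No leaf marker was at 0 in an anther library. The part of the makeup of the anthers in the changes of the 100 genes was not tested.

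LOC_Os12g31000 had the largest fall. In SD anthers it had 7.35 and 5.81 CPM at 16:00 and 1.0 and 1.53 CPM at 04:00 in csa, against 75.2 and 121 CPM at 16:00 and 108 and 50.5 CPM at 04:00 in WT. The genotypes did not overlap, and the log2 change was −5.00 (SE 0.56, edgeR adjusted p = 5.05e-05). In LD it had 38.4, 5.67, 29.4 and 15.3 CPM in csa and 123, 183, 101 and 158 CPM in WT, a change of −2.77 (SE 0.48, edgeR adjusted p = 0.00141). LOC_Os01g69840 had the next fall in SD, −2.60 (SE 0.217, edgeR adjusted p = 8.31e-06), and a change of −1.35 in LD (SE 0.207, edgeR adjusted p = 0.000783). At 16:00 in SD it had 2.16 and 1.59 CPM in csa and 14.2 and 12.1 CPM in WT, and at 04:00 0.462 and 0.895 CPM in csa and 3.20 and 3.21 CPM in WT.

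PIP2;7, the water channel, was lower in csa anthers in both photoperiods. In SD it had 129 and 96.4 CPM at 16:00 and 146 and 131 CPM at 04:00 in csa, against 869 and 894 CPM at 16:00 and 271 and 452 CPM at 04:00 in WT. The log2 change was −2.24 (SE 0.169, edgeR adjusted p = 4.69e-06). In LD it averaged 275 ± 32.0 CPM in csa and 494 ± 67.1 CPM in WT (mean ± standard deviation, n = 4 each), a change of −0.94 (SE 0.163, edgeR adjusted p = 0.00139). In WT SD anthers both 16:00 values lay above both 04:00 values, and in csa SD anthers they lay below them.

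CATA (LOC_Os02g02400), the catalase, changed in opposite directions in SD and LD. In SD anthers it had 504 and 327 CPM in csa and 320 and 405 CPM in WT at 16:00, which overlapped, and 194 and 183 CPM in csa and 45.9 and 40.1 CPM in WT at 04:00, which did not. The log2 change was 1.1 (SE 0.156, edgeR adjusted p = 0.000219). In LD it had 232, 195, 99.0 and 141 CPM in csa and 281, 311, 171 and 140 CPM in WT (16:00 first), a change of −0.52 (SE 0.154, edgeR adjusted p = 0.0212). The LD call was lost without any of 4 libraries, WT LD 04:00 replicate 1 (−0.50), WT LD 16:00 replicate 2 (−0.47), csa LD 04:00 replicate 1 (−0.47) or csa LD 16:00 replicate 2 (−0.47).

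PRR37 and LIR1 differed between the genotypes in SD anthers, with the wider gap at 04:00. PRR37 had 19.7 and 20.2 CPM in csa and 46.7 and 60.4 CPM in WT at 04:00, and 159 and 152 CPM in csa and 141 and 120 CPM in WT at 16:00, with a log2 change of −0.64 over both times (SE 0.0979, edgeR adjusted p = 0.000345). LIR1 had 30.1 and 20.9 CPM in csa and 6.75 and 6.32 CPM in WT at 04:00, and 157 and 104 CPM in csa and 104 and 138 CPM in WT at 16:00, with a change of 0.98 (SE 0.189, edgeR adjusted p = 0.00148). PRR37 was thus lower in csa at 04:00 and higher at 16:00, with no overlap at either time, and LIR1 was higher at 04:00 and overlapped at 16:00. The times were not tested separately. In LD the changes of 0.09 for PRR37 (edgeR adjusted p = 0.505) and 0.37 for LIR1 (edgeR adjusted p = 0.15) did not pass. In WT SD at 04:00 the 5 leaf markers summed to 463 and 559 CPM, the lowest of the anther groups. LIR1 and CATA were low in those libraries, while PRR37 was higher there than in csa. Whether the markers and these genes are linked was not tested.

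Over both times PPT2 was higher in csa anthers in both photoperiods, by 0.41 in SD (SE 0.101, edgeR adjusted p = 0.00588) and 0.60 in LD (SE 0.102, edgeR adjusted p = 0.00135). At 16:00 in SD it had 73.4 and 71.4 CPM in csa and 31.5 and 34.0 CPM in WT. At 04:00 in SD it had 16.1 and 18.4 CPM in csa and 21.7 and 18.1 CPM in WT, so the genotypes overlapped there and the csa mean was the lower one. In LD it had 47.4 and 49.1 CPM in csa and 38.2 and 27.5 CPM in WT at 16:00, and 18.9 and 19.0 CPM in csa and 10.2 and 11.2 CPM in WT at 04:00, with no overlap at either time. LOC_Os07g34570 was higher in csa in SD by 0.42 (edgeR adjusted p = 0.0109), a call lost without WT SD 16:00 replicate 1 (0.25) or csa SD 04:00 replicate 1 (0.35), and in LD its change of −0.22 did not pass (edgeR adjusted p = 0.164). Among the genes that passed, the largest rises in SD were those of genes with few reads. ChrSy.fgenesh.gene.28 rose by 2.37 (SE 0.798, edgeR adjusted p = 0.0304, lost without any 1 of 5 libraries), and LOC_Os10g30410 rose by 2.27 (SE 0.437, edgeR adjusted p = 0.00146) with 0.916 ± 0.508 CPM in csa and 0.168 ± 0.0971 CPM in WT (mean ± standard deviation, n = 4 each). Among those that passed in LD, LOC_Os01g51980 rose by 1.21 (SE 0.311, edgeR adjusted p = 0.0107), and LOC_Os03g05270 rose by 1.20 (SE 0.144, edgeR adjusted p = 0.000195) with 36.1 and 44.6 CPM in csa and 16.3 and 12.3 CPM in WT at 16:00. LOC_Os06g28194, with at most 25 reads in an anther library, fell by 1.99 in LD (SE 0.562, edgeR adjusted p = 0.0172), a call lost without WT LD 16:00 replicate 2, WT LD 04:00 replicate 2 or csa LD 16:00 replicate 1.

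**Figure D5:**
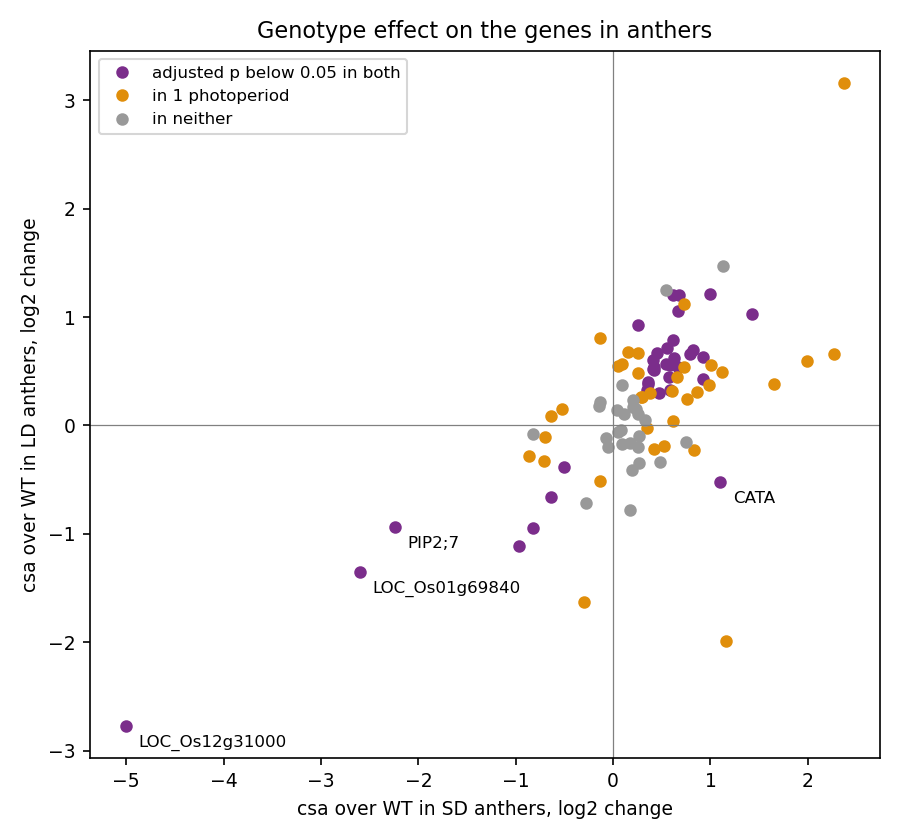
Log2 change of csa over WT in anthers in SD (horizontal) and LD (vertical) for 97 of the 100 genes (edgeR, both times averaged). Purple points passed in both photoperiods, orange points in 1 and grey points in neither. The 3 genes not plotted were not tested or had a very large SE. LOC_Os12g31000 lies at −5.00 in SD and −2.77 in LD, PIP2;7 at −2.24 and −0.94, and CATA at 1.1 and −0.52.

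The difference between the photoperiods was tested directly, in a comparison added after the data were seen. The log2 change of csa over WT in SD minus that in LD was positive for 7 genes and negative for 9 past the threshold, where 8.15% of tested genes were called positive and 9.66% negative, and the median of the 99 genes tested was 0.08 (range −2.23 to 3.14). Of the 16 calls, 11 were lost without some 1 library. The 3 named genes called, CATA, PRR37 and PIP2;7, were among the 5 calls that held without any 1 of the 16 libraries.

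By locus number, 21 of the 100 genes lie on chromosome 1 (21.2% of those with a chromosome, against 14.4% of the genes with at least 10 CPM) and 18 on chromosome 3 (18.2% against 14.1%). Close locus numbers were shared by LOC_Os01g65130, LOC_Os01g65140 and LOC_Os01g65169, by LOC_Os02g53350 and LOC_Os02g53400, by LOC_Os05g49060 and LOC_Os05g49130, and by LOC_Os07g42650 and LOC_Os07g42750. Whether reads were shared between such neighbours in the authors' counting was not tested.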

How the data were processed

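The deposited leaf and anther tables hold raw read counts per gene, made by the authors from their reads. The read aligner, counter, build and gene models were not given in the sources used here, so coordinates and sequences are left out. All 64 libraries were matched to samples by their labels. The 100 genes, the gene lists and the tests were chosen with earlier results of these data known.

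SD leaves (24 libraries, 21428 genes), LD leaves (24, 21314) and anthers (16, 25203) were fitted separately in R 4.3.3 with edgeR 4.0.16 (filterByExpr, TMM, quasi-likelihood F-test on contrasts of group means). Benjamini-Hochberg adjustment covered all genes of a fit, with a threshold of 0.05. The SE given with an edgeR change is the size of the log2 change over the square root of the F statistic. It is not a separately fitted standard error and means little where F is near 0. CPM are counts over the library's total. DESeq2 1.42.0 was an alternative. What replicate numbers mark is not stated, and replicate differences did not all correlate above 0.1 (r −0.371 to 0.328 in leaves, −0.379 to 0.368 in anthers), so they were not used as a block. Whether replicates came from separate plants is not stated, so p-values measure the spread between these libraries.

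Symbols were written from memory. Of 243 list symbols, 152 were found in RefSeq's gene table (assembly ASM3414082v1) on the chromosome of the locus, and the gene lists use only these. The tissue markers RBCS3, RBCS2, ABCG26 and PKS1 were not found there, and their names are from memory alone. Named by rule were list members, the loci set aside, the top 5 and the genes at the limit by ratio. So were the largest changes of each comparison (at most 2 each way). All other members named in the text, LIR1 and PPT2 among them, were added after their values were seen. The comparison of the genotype change between SD and LD anthers was added then too.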

Additional observations from a re-analysis of the deposited data

Results flagged for a closer look

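The change of csa over WT in anthers differed between SD and LD for 7 of the genes named by rule or by a symbol. The difference itself was tested (edgeR, change in SD minus change in LD, adjusted over all tested genes). Of the 99 genes tested, 16 passed in all (7 positive and 9 negative), a share near that of all genes, where 8.15% were called positive and 9.66% negative. CATA had 1.63 (SE 0.219, edgeR adjusted p = 0.0037), PRR37 −0.74 (SE 0.139, edgeR adjusted p = 0.00766) and PIP2;7 −1.30 (SE 0.229, edgeR adjusted p = 0.0065), and these held without any 1 of the 16 libraries. LOC_Os01g69840 had −1.25 (SE 0.3, edgeR adjusted p = 0.0178), which was lost without csa LD 04:00 replicate 1 (−1.04). LOC_Os07g34570 had 0.64 (SE 0.163, edgeR adjusted p = 0.0221), lost without WT LD 04:00 replicate 1 (edgeR adjusted p = 0.0525) or csa SD 04:00 replicate 1 (0.57, edgeR adjusted p = 0.0606). LOC_Os12g31000 had −2.23 (SE 0.691, edgeR adjusted p = 0.045), lost without any 1 of 13 libraries, with −1.27 without csa LD 16:00 replicate 1. LOC_Os06g28194 had 3.14 (SE 0.926, edgeR adjusted p = 0.0377), lost without any 1 of 11 libraries and resting on at most 25 reads in a library. In the same comparison 2 of the 5 leaf markers passed (RBCS3 at 1.44 and RBCS2 at 1.23), as did 3 of the 5 anther markers (EAT1 at −0.61, PKS1 at −7.76 and CYP703A3 at −5.16), and their part in these values was not tested.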

How the results depend on the processing

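The afternoon rise of the 100 genes in SD leaves was the same under RLE scaling, DESeq2, no filter, a replicate block, all 48 leaf libraries in 1 fit, the 12:00 libraries left out and each library left out, with 100 higher and 0 lower in each. Without the filter the median change of all genes in that comparison was −0.128. Against 12:00 the count of lower genes was 2 with no filter and 0 to 2 with a library left out, and in anthers at 16:00 against 04:00 it was 2 with DESeq2, RLE or no filter and 0 to 1 with a library left out. The choice itself shared 100 of 100 genes with minimum means of 5 or 20 CPM, 83 with 0.1 CPM added, 89 with 1 CPM added, and 91 with WT or csa libraries alone.

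Counts for csa against WT in leaves moved most. In LD, genes higher were 6 with DESeq2, 11 with no filter, 0 without 12:00 and 1 to 5 with a library left out, and genes lower 4, 4, 0 and 0 to 4, with 1 lower under RLE. Over all genes LD calls were 965 with DESeq2, 1462 with no filter, 197 without 12:00 and 322 to 809 with a library left out, against 541. In SD, genes lower were 9 and higher 1 with no filter, and higher 0 to 1 with a library left out; over all genes calls were 556 with DESeq2, 1149 with no filter, 100 with 12:00 as labelled, and 167 (without WT SD 04:00 replicate 1) to 628 (without WT SD 08:00 replicate 2), against 246. At 16:00, calls over all genes in SD were 103 with DESeq2, 561 with no filter (1 of the 100 genes lower), 79 with all leaf libraries and 16 to 295 (without csa SD 16:00 replicate 2), against 35, and in LD 94, 399 (1 of the 100 genes higher), 72 and 16 to 46, against 32. For the genotype difference in the peak they were in SD 11 with DESeq2, 301 with no filter (1 of the 100 higher and 1 lower), 4 with all leaf libraries, 4 with 12:00 as labelled and 2 to 131, against 2, and in LD 22, 236 (2 of the 100 higher), 1 and 0 to 15, against 0. The cause of these moves was not tested.

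With the replicate number as a block, genes lower in LD csa leaves were 1, all calls at 16:00 in LD were 62, and genes with a positive difference between SD and LD anthers were 4 in place of 7. Other counts stayed within 1.5 times. Without 1 library, genes higher in csa LD anthers were 20 to 36, and for SD minus LD 1 to 6 were positive and 4 to 10 negative, with 2154 to 4747 of all genes, lowest without csa LD 04:00 replicate 1. The alternatives for SD minus LD were chosen after seeing the data. In all, 162 counts stayed within 1.5 times and 40 did not. Single values were followed only for the genes with the largest called changes of each comparison. Of these values 119 kept their call and 8 lost it, and none changed direction. PRR37, LIR1, CATA, PPT2 and PIP2;7 were not among those genes. With 1 library left out, 754 counts stayed and 86 did not, and 476 single values kept their call and 60 lost it.

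Depth limits the low genes: several 04:00 values rest on 0 to 2 reads, and 2 libraries per group limit the genotype comparisons at 1 time.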
